A study of Mus musculus with 14 samples.

Results

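The nuclear genes for subunits of the mitochondrial respiratory chain and ATP synthase were examined in the retinal pigment epithelium (RPE) of mice lacking Clic4, a chloride intracellular channel protein. Members were the protein-coding genes whose symbol began with Nduf (letters a, b, c, s or v and a digit), Uqcr, Cox4 to Cox8 or Atp5, or was Sdha, Sdhb, Sdhc or Sdhd. Of the 42687 genes in the raw count table, 84 met this rule: 37 for complex I, 4 for complex II, 8 for complex III, 18 for complex IV and 17 for complex V. Another 10 rows with such symbols were processed pseudogenes and were left out.

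RNA-seq was run on RPE from 14 male C57BL/6J mice aged 3 months, 1 library per mouse. In KO mice, Cre recombinase from the Best1-Cre transgene, active in RPE, removed the floxed Clic4 gene (genotype Best1-Cre+/-; Clic4f/f). KO was compared with controls in 3 sets that shared no library: 3 KO with 3 wild-type mice (WT), 2 KO with 2 mice carrying the floxed allele without Cre (Ctrl, Clic4f/f), and 2 KO with 2 mice carrying Cre without the floxed allele (CreCtrl, Best1-Cre+/-). Both eyes of a mouse were pooled for a library. Each control genotype was found in 1 set only, so control genotype and set cannot be told apart.

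Complex I (NADH dehydrogenase), complex II (succinate dehydrogenase), complex III (cytochrome bc1) and complex IV (cytochrome c oxidase) pass electrons from NADH and succinate to oxygen. All but complex II pump protons as they do so, and complex V (ATP synthase) uses the proton gradient to make ATP. Most subunits are encoded in the nucleus and must be made together with the few encoded in mitochondrial DNA, which were not analysed here. RPE relies on this machinery heavily: it burns lactate and fatty acids in its mitochondria and spares glucose for the photoreceptors.

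Levels are given in CPM, the read count of a gene relative to the size of its library, with library sizes scaled by edgeR's trimmed mean of M-values (TMM) over all 14 libraries. Libraries held 9828293 to 32384166 counts, with the WT libraries lowest (9828293 to 12363580), and TMM factors ran from 0.868 to 1.2, highest in WT (1.19 to 1.2). Clic4, the targeted gene, stood at 17.9 to 32.8 CPM in KO against 215 to 227 CPM in WT, at 9.81 and 33.7 CPM in KO against 62.9 and 71.8 CPM in Ctrl, and at 13.8 and 31.2 CPM in KO against 87.9 and 106 CPM in CreCtrl. Each KO library was below each control library of its set. A single count of 0 allowed up to 3 counts, or 0.0926 to 0.305 CPM depending on the library, counting error only.

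Across the 7 control libraries, complex V genes had the highest levels per kilobase of principal transcript (median 131 CPM per kb), followed by complexes III (92.7), IV (81.8), I (61.2) and II (49.4). The single genes with the highest median level per kilobase were Cox8a at 550 CPM per kb (356 to 813 over the control libraries), Cox8b at 341 (211 to 605), Cox6a1 at 305 (158 to 377), Cox4i1 at 288 (225 to 507) and Atp5b, the catalytic beta subunit of ATP synthase, at 251 (167 to 465). These ranges overlapped, and the order was not the same in each set: Atp5b was above Cox8b in the Ctrl libraries. Only 3 members stayed under 10 counts in every library: Cox6a2, the heart and skeletal muscle form of subunit VIa, reached 5 counts, Cox7b2 reached 3 counts, and Cox8c, a testis form of subunit VIII, was at 0 counts in all 14 libraries. The exons of 26 members, among them Ndufa9, Ndufs1, Ndufa4l2, Ndufb2, Cox4i1 and Atp5l, overlapped those of a gene on the other strand. Whether reads were counted by strand is not given in the sources used here, so reads of these members and of their antisense partners may not have been told apart.

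Promoters from 250 bases before to 50 bases after the start site (RefSeq, build GRCm38.p6) matched 68 of the 84 members. They were searched on both strands for the letters bound by factors known for respiratory genes: NRF1 (GCGCATGC, reverse GCATGCGC), the ETS factors such as GABPA (CCGGAAG, reverse CTTCCGG) and YY1 (AAGATGGC, reverse GCCATCTT). The run GCGCATGCGC holds the NRF1 letters on both strands as overlapping matches, and a promoter was counted once. Each member gave 1 promoter, the one nearest its annotated gene start. The promoters of the whole table were counted per start site, so a gene could enter more than once, and members were included. The NRF1 letters were in 10 of 68 member promoters (14.7%) against 891 of all 32851 promoters in the table (2.71%). The ETS letters were in 15 (22.1%, against 8.86% of all promoters) and the YY1 letters in 9 (13.2%, against 2.75%). At least 1 of the 3 was in 29 member promoters (42.6%), against 13.3% of all promoters.

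The YY1 letters were found in 7 of 32 complex I promoters and 2 of 15 complex V promoters, and in none of the 3 for complex II, 5 for complex III or 13 for complex IV. In all 7 complex I promoters they began downstream of the start site, which is base 251 of the 300 bases: the first began at base 273 and the last at base 289. These promoters are shown for 3 complex I genes that carry the match at this place: Ndufs7, which binds the last iron-sulfur cluster before ubiquinone, Ndufs4, an accessory subunit needed for assembly of the peripheral arm, and Ndufa9, an accessory subunit at the junction of the arms. They are read 5′ to 3′ on the gene's strand, and capitals mark the matched letters.
Ndufs4 (chr13:114388045-114388344, minus strand): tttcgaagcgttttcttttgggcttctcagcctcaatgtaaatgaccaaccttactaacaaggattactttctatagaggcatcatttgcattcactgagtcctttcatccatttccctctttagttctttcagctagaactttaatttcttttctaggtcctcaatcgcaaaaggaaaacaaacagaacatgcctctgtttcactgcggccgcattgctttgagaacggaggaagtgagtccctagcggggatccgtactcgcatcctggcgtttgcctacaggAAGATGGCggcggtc
Ndufs7 (chr10:80249199-80249498, plus strand): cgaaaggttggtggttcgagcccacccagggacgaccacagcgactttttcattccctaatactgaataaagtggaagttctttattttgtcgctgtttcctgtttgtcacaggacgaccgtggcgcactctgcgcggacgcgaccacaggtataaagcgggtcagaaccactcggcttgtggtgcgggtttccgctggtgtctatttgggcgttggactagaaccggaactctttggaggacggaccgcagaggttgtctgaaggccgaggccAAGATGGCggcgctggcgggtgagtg
Ndufa9 (chr6:126849095-126849394, minus strand): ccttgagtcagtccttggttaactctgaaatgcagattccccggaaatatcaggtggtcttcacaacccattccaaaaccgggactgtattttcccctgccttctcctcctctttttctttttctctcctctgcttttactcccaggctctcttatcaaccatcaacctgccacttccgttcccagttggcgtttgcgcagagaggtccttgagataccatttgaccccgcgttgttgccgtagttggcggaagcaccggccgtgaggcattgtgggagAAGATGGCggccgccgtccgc

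For complexes II, III and IV, the promoters of Sdhb, the iron-sulfur subunit of succinate dehydrogenase, Uqcrc1, a core protein of cytochrome bc1, and Cox6a1, the widely expressed form of subunit VIa, are shown because they hold NRF1 letters, with ETS letters also in Sdhb and Cox6a1. In Uqcrc1 and Cox6a1 the capitals of the NRF1 match cover 10 bases, since the letters occur on both strands.
Sdhb (chr4:140961021-140961320, plus strand): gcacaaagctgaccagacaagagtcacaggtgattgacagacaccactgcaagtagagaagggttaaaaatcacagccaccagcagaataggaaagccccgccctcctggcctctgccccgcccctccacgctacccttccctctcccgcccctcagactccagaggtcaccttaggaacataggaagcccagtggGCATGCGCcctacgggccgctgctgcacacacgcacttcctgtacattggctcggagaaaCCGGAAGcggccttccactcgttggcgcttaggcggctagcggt
Uqcrc1 (chr9:108936398-108936697, plus strand): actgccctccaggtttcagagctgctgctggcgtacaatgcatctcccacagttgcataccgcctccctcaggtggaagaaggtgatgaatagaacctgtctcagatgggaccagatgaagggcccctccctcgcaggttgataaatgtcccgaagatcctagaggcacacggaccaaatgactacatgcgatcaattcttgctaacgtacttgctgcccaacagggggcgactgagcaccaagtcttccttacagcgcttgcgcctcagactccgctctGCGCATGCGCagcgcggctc
Cox6a1 (chr5:115348909-115349208, minus strand): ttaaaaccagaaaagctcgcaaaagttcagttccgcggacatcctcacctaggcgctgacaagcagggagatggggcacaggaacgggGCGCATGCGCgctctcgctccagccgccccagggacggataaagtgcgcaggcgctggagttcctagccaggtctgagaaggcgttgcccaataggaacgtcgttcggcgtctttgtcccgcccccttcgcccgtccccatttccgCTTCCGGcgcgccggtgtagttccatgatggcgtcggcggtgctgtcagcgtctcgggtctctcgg

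The pair of subunit genes with the largest rise in KO against WT, Ndufa4 and Ndufc2, held none of the 3 letter strings in this window, and are shown beside those that do. The absence of a match says only that these letters are not in these 300 bases.
Ndufa4 (chr6:11907401-11907700, minus strand): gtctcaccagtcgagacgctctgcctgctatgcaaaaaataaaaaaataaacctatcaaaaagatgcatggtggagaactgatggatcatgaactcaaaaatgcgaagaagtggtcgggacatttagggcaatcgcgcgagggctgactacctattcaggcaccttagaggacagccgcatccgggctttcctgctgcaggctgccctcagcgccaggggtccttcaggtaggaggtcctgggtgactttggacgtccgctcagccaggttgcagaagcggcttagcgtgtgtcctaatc
Ndufc2 (chr7:97399753-97400052, plus strand): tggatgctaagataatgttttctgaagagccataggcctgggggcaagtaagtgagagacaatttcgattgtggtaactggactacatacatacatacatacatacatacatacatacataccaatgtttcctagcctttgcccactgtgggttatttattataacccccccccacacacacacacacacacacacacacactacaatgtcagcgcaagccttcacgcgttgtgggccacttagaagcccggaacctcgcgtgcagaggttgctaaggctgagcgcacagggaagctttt

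The question of the first comparison was how RPE of KO mice differed from that of WT mice. Nearly every respiratory subunit gene was higher in KO, across all 5 complexes: of 81 members tested by edgeR's quasi-likelihood test, 73 passed an adjusted p of 0.05 (Benjamini-Hochberg over all 15428 genes tested) with a higher level in KO, and 1 passed with a lower level. Of all genes tested, 16.1% passed higher and 19.0% passed lower. The median log2 fold change of the members was 1.30, where all genes had -0.08, and 71 members were also past a fold of 1.5. Every KO library was above every WT library for 77 members, which held for 29.0% of all genes.

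The summed level of the members was 5610, 6610 and 6530 CPM in WT 1 to 3 and 16900, 18200 and 15800 CPM in the KO libraries of the same set. Complex I rose from 2220 ± 117 to 5910 ± 436 CPM (mean ± SD, n = 3 each), complex II from 343 ± 39.1 to 711 ± 40.7, complex III from 668 ± 76.6 to 1900 ± 206, complex IV from 1240 ± 157 to 3510 ± 363 and complex V from 1780 ± 184 to 4970 ± 199. No WT and KO library overlapped in any of the 5 sums. Because these were bulk samples, fewer cells of a type and less RNA per cell cannot be told apart.

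**Figure D1:**
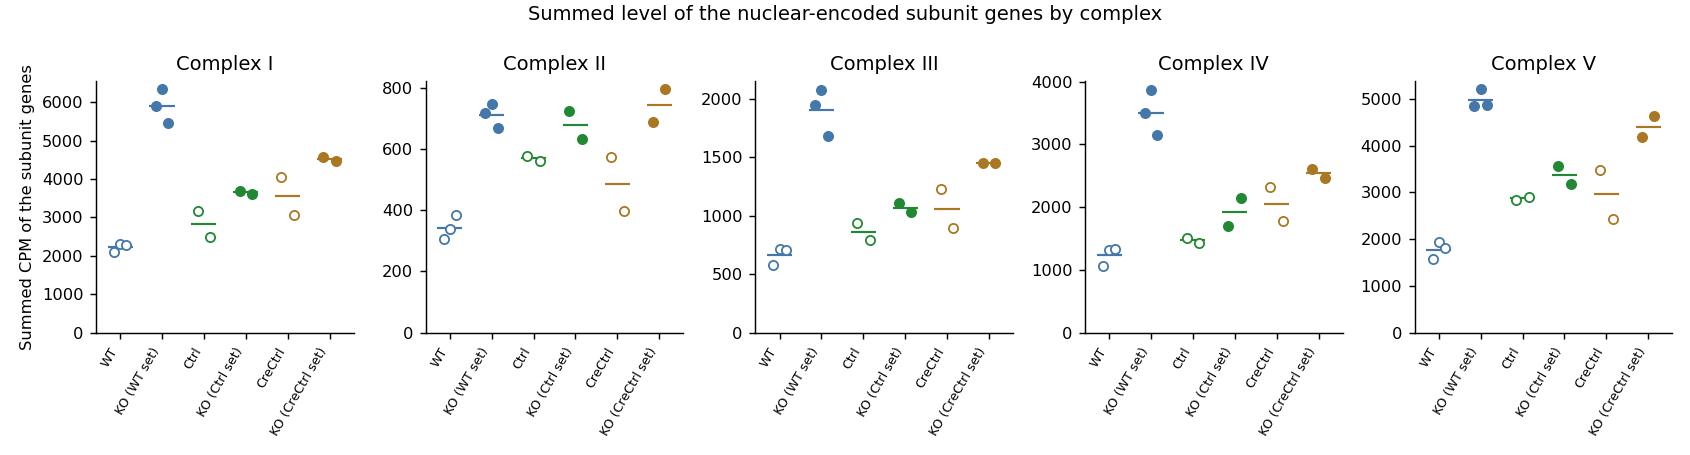
Summed CPM of the member genes of each complex in each of the 14 libraries, with open points for controls, filled points for KO and a line at the group mean. The KO libraries of the WT set lie above the 3 WT libraries in all 5 complexes, and the step is smaller in the sets with Ctrl and CreCtrl.

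Genes that mark other cells moved with this comparison. All 10 fibroblast markers tested were lower in KO (median log2 fold change -4.44), with a summed level of 7680 to 7890 CPM in WT and 270 to 743 CPM in KO. The 7 pericyte and smooth muscle markers summed to 2280 to 2380 CPM in WT and 377 to 476 CPM in KO. Most of their sum in WT was Rgs5, at 1510 to 1830 CPM. Of the 7 markers 4 were called lower, while Acta2 (log2 fold change 0.64) and Cspg4 (0.13) were higher in KO, not called. The 10 endothelial markers summed to 341 to 784 CPM in WT and 81.2 to 157 CPM in KO. Of the 11 myeloid markers 10 were called lower (median -3.69), while Csf1r was called higher (481 to 500 CPM in WT and 738 to 835 CPM in KO), so that their sum went only from 1250 to 1620 CPM in WT to 787 to 921 CPM in KO. Rod photoreceptor markers summed to 59.6 to 1480 CPM in WT and 406 to 2170 CPM in KO. Most RPE markers went the other way: 9 of 10 were called higher in KO (median 1.57). The tenth, Best1, was lower (log2 fold change -1.82, not called), at 3.26, 5.87 and 4.11 CPM in WT and 1.21, 1.4 and 1.53 CPM in KO. The RPE markers summed to 16100 to 23000 CPM in WT and 73400 to 82600 CPM in KO. The part of these markers in the result was not tested.

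**Figure D2:**
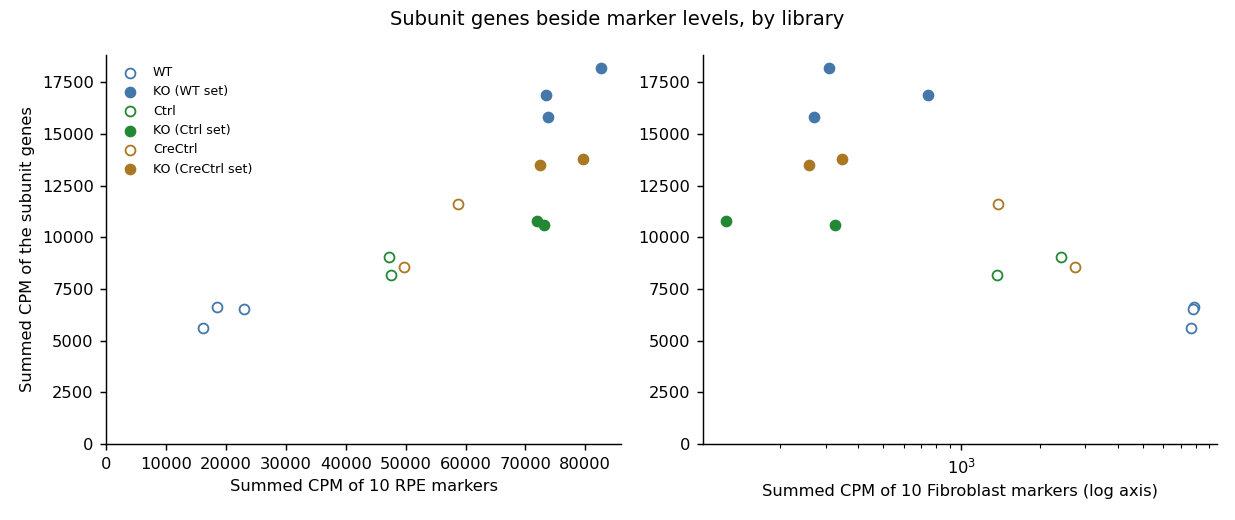
Summed CPM of all member genes in each library (vertical axis) against the summed CPM of 10 RPE markers (left) and of 10 fibroblast markers (right, log axis), with open points for controls and filled points for KO. The 3 WT libraries have the lowest member sums (5610 to 6610 CPM), the lowest RPE marker sums and the highest fibroblast marker sums.

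Within complex I, 35 of 37 genes were called higher and 1 lower (median log2 fold change 1.16). The 7 genes for the conserved core that carries the flavin and the iron-sulfur clusters all rose, with a median of 0.67 and a range from 0.51 in Ndufs8 and Ndufv1 to 1.38 in Ndufv2. Of the 30 accessory genes, 28 were called higher, with a median of 1.28. Among the core genes, Ndufs1, the largest, was at 42.6, 49.2 and 57.5 CPM in WT and 106, 101 and 95 CPM in KO (log2 fold change 0.86, SE 0.15, adjusted p = 0.00223). Ndufv1, the flavin-carrying NADH-binding subunit, was at 63.3, 65.5 and 82.5 CPM in WT and 127, 104 and 103 CPM in KO (0.51, SE 0.16, adjusted p = 0.0337), among the smallest rises of the complex. That call was lost without WT 1 (adjusted p = 0.0994), WT 2 (0.107) or KO 1 (0.0747).

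The largest rises were in small accessory subunits. Ndufa4, named as a complex I gene but now counted with cytochrome c oxidase, was at 62.9, 84.8 and 79.3 CPM in WT and 421, 405 and 371 CPM in KO (log2 fold change 2.25, SE 0.15, adjusted p = 3.47e-05). Ndufc2, in the membrane arm, was at 42.2, 51.3 and 44.4 CPM in WT and 231, 261 and 199 CPM in KO (2.17, SE 0.14, adjusted p = 3.33e-05). Ndufs5 was at 14.2, 10.7 and 13.9 CPM in WT and 58.4, 63.4 and 51.3 CPM in KO (2.00, SE 0.19, adjusted p = 0.000109). For all 3 genes the lowest KO library was far above the highest WT library. Ndufs4, whose promoter holds the YY1 letters, rose by a log2 fold change of 1.76 (SE 0.16, adjusted p = 0.000103). Ndufb2 did not pass the test (0.18, SE 0.25, adjusted p = 0.629) and its KO values of 23, 27.4 and 30.9 CPM overlapped the WT values of 27.9, 16.1 and 20.5 CPM.

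Ndufa4l2, a paralogue of Ndufa4 known as a target of hypoxia-inducible factor, was the 1 member called lower. It was at 2.85, 4.17 and 6.4 CPM in WT (35, 49 and 95 counts) and 0.0673, 0 and 0.467 CPM in KO (1, 0 and 7 counts). The log2 fold change was -4.72 (SE 1.26, adjusted p = 0.0195), and at these low KO counts its size depends on the prior count. The call was lost without WT 3 (adjusted p = 0.0859) or without KO 1 (adjusted p = 0.0568).

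All 4 complex II genes rose, with the smallest median of the 5 complexes (0.90). Sdha, the flavoprotein that oxidises succinate, was at 125, 137 and 136 CPM in WT and 242, 247 and 228 CPM in KO (log2 fold change 0.70, SE 0.11, adjusted p = 0.00147). Sdhc, a membrane anchor, rose most, from 90.1 ± 21.5 CPM (SD, n = 3) to 217, 235 and 220 CPM (1.16, SE 0.18, adjusted p = 0.00127). Sdhb and Sdhd rose by 0.84 and 0.96. All 8 complex III genes rose (median 1.40). The rise was largest for Uqcrfs1, the Rieske iron-sulfur protein, at 42.3, 51.8 and 52.6 CPM in WT and 191, 192 and 159 CPM in KO (1.73, SE 0.14, adjusted p = 6.28e-05). The other core protein gene, Uqcrc2, rose by 1.39 (SE 0.14, adjusted p = 0.000179). The rise was smallest for Uqcrc1, at 108, 152 and 126 CPM in WT and 261, 292 and 273 CPM in KO (0.94, SE 0.15, adjusted p = 0.00136).

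In complex IV, 11 of 15 tested genes were called higher (median 1.34). Cox4i1, the common form of subunit IV, was at 172, 216 and 220 CPM in WT and 565, 634 and 515 CPM in KO (log2 fold change 1.34, SE 0.15, adjusted p = 0.000245). Cox7b, a small membrane subunit, was at 84.2, 97.8 and 102 CPM in WT and 324, 386 and 300 CPM in KO (1.67, SE 0.14, adjusted p = 7.44e-05). The matrix-side subunits Cox5a and Cox5b rose by 1.21 and 1.35, and Cox6a1 by 1.44. The 4 genes that did not pass were Cox4i2, Cox6b2, Cox7a1 and Cox7a2l. In complex V, 15 of 17 genes were called higher (median 1.34). Atp5b was at 320, 392 and 330 CPM in WT and 1050, 1070 and 1100 CPM in KO (1.47, SE 0.13, adjusted p = 8.16e-05). Its catalytic partner, the alpha subunit gene Atp5a1, rose by 1.15 (SE 0.12, adjusted p = 0.000194). Atp5mpl, a small proteolipid of the membrane sector, had the largest value of the complex, from 48, 79.9 and 77.8 CPM to 294, 277 and 260 CPM (1.86, SE 0.20, adjusted p = 0.000238). Atp5s, the coupling factor B gene, did not pass (0.37, SE 0.22, adjusted p = 0.231), nor did Atp5g2 (0.65, SE 0.24, adjusted p = 0.0703).

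**Figure D3:**
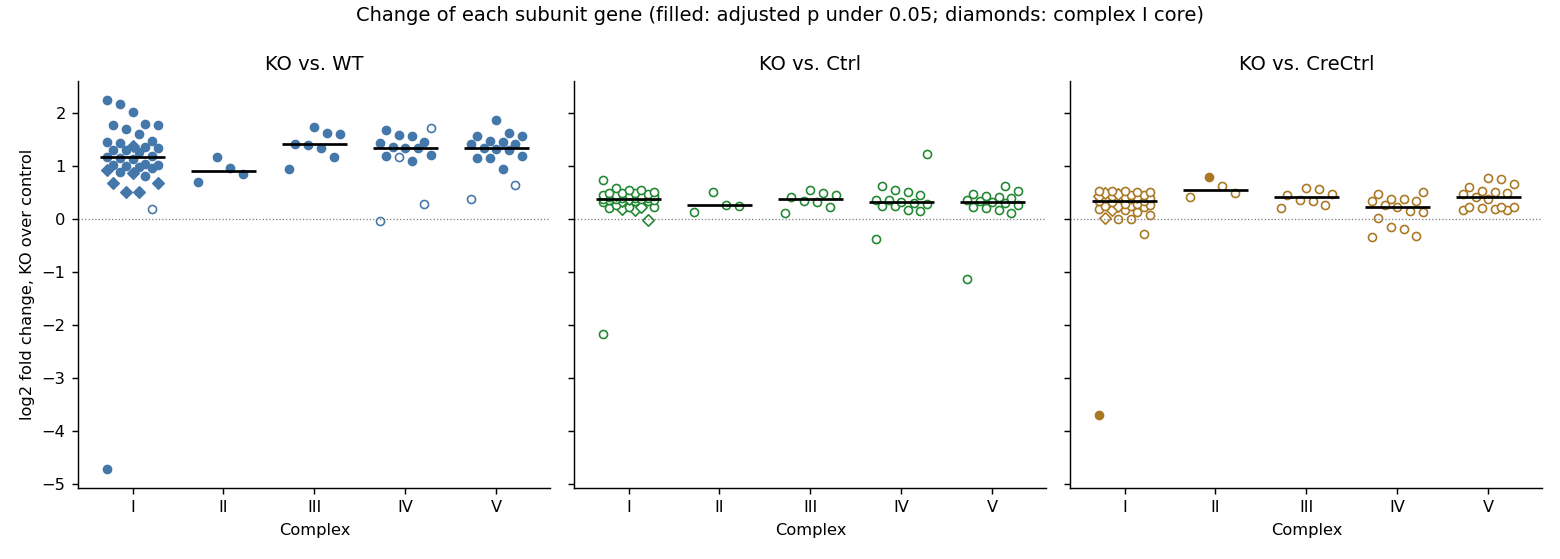
Log2 fold change (KO over control) of each tested member in each of the 3 comparisons, by complex, 1 point per gene, filled where the adjusted p is under 0.05, with diamonds for the complex I core and a line at the median of the complex. Against WT most points are filled and well above 0 (median of all members 1.30), against Ctrl none is filled and against CreCtrl 2 are, and Ndufa4l2 is the lowest point in all 3.

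Respiratory genes also stood above other genes of like transcript length or abundance in KO against WT. Members with a principal transcript up to 1 kb had a median log2 fold change of 1.33 (49 genes) where other genes of that length had 0.16. The values were 1.26 (25 genes) and 0.06 from 1 to 2 kb, and 0.97 (7 genes) and -0.14 above 2 kb. Among the 1543 genes in the top 10% by abundance, all 36 members were called higher (median 1.37), while 52.8% of the other genes there were (median 0.48). Members whose promoter held at least 1 of the 3 letter strings had a median of 1.18 (28 of 29 called higher), and those without had 1.33 (33 of 38 called higher). Of the 56 tested members with no exon overlap on the other strand, 50 were called higher (median 1.33).

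Other genes of the respiratory system gave smaller medians. Of 46 assembly factors tested, 18 were called higher and none lower (median 0.61), and by sign alone 41 were higher and 5 lower. Of all genes, 16.1% were called higher and 19.0% lower. Another list held 14 electron carriers, uncoupling proteins, carriers of the inner membrane and other respiratory genes. It includes the complex I subunit gene Ndufab1, which the rule's pattern leaves out. Of these 14 genes 10 were called higher (median 1.01). Among them were Slc25a4, the ADP/ATP exchanger (1.87, adjusted p = 4.16e-05), and Cycs, cytochrome c (1.47, adjusted p = 0.000302). Among 13 regulators of respiratory genes, 2 were called higher and 2 lower (median -0.14), against 16.1% and 19.0% of all genes. Ppargc1a, the coactivator of mitochondrial biogenesis, rose by 1.44 (SE 0.24, adjusted p = 0.00181) and Esrra, a nuclear receptor it works with, by 0.39 (adjusted p = 0.0324). Pprc1, a relative of Ppargc1a, fell by 1.63 (SE 0.19, adjusted p = 0.000307) and Gabpb1, a partner of the ETS factor GABPA, by 0.97 (adjusted p = 0.0167). The call for Esrra was lost without WT 2, WT 3, KO 1 or KO 2 (adjusted p = 0.0504 to 0.1) and that for Gabpb1 without WT 3, KO 2 or KO 3 (adjusted p = 0.0671 to 0.0736). Ribosomal protein genes of the cytosol, another large set of short, abundant transcripts, had a median of -0.30, with 2 of 80 called higher and 29 lower. In edgeR's test no gene of these first 2 lists was called against Ctrl (medians 0.22 and 0.15) or CreCtrl (0.30 and 0.40). Tfam, the mitochondrial DNA packaging and transcription factor, was the 1 regulator called against CreCtrl (0.63, adjusted p = 0.0482), and its call was lost without CreCtrl 2, KO 1 or KO 2 (adjusted p = 0.0897 to 0.26).

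The comparison with Ctrl, which shares the floxed allele with KO, gave no called member. Of 80 members tested, none passed an adjusted p of 0.05 in edgeR's quasi-likelihood test, and 1 passed an unadjusted p of 0.05. DESeq2 also called no member. The share of all 15287 genes that passed was 0%, and the unadjusted p was under 0.05 for 1846 of them. The targeted gene Clic4 was thus not called either. It passed in edgeR's test without the low-count filter (log2 fold change -1.63, adjusted p = 2.62e-05). The fold changes pointed upward in 76 of the 80 members, with a median log2 fold change of 0.35 against 0.01 over all genes. Both KO libraries were above both Ctrl libraries for 38 members, which held for 17.2% of all genes. Among the top 10% of genes by abundance, the 36 members had a median of 0.37 and the other genes one of 0.19. An exact permutation of 2 against 2 libraries could give no p below 0.333.

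The summed level was 9040 and 8180 CPM in Ctrl and 10800 and 10600 CPM in KO, and the groups did not overlap. By complex, the means went from 2840 ± 485 to 3650 ± 42.8 CPM in complex I (SD, n = 2 each), 569 ± 10.8 to 678 ± 65.5 in II, 864 ± 106 to 1070 ± 51.2 in III, 1470 ± 53.3 to 1920 ± 309 in IV and 2870 ± 43.7 to 3370 ± 270 in V. The medians of the log2 fold changes lay close together, from 0.26 in complex II to 0.38 in complex I. Ndufa4 was at 187 and 130 CPM in Ctrl and 275 and 161 CPM in KO, and Ndufc2 at 153 and 105 CPM in Ctrl and 174 and 145 CPM in KO. Both genes overlapped between the groups. Fibroblast markers summed to 1370 to 2410 CPM in Ctrl and 124 to 326 CPM in KO. RPE markers summed to 47200 to 47600 CPM in Ctrl and 72000 to 73100 CPM in KO. Of these 10 markers 9 were higher in KO and Pmel was lower (log2 fold change -1.66), none called. Rod markers summed to 562 to 2130 CPM in Ctrl and 2020 to 2170 CPM in KO. Endothelial markers summed to at least 134 CPM in Ctrl and at most 59 CPM in KO (all 10 lower, median -2.15, none called). Pericyte and smooth muscle markers summed to 548 to 853 CPM in Ctrl and 308 to 392 CPM in KO. Of the 6 tested 5 were lower and Cspg4 was higher (0.48), none called. Myeloid markers summed to 700 to 1080 CPM in Ctrl and 834 to 1490 CPM in KO (median 0.24). Their part in these values was not tested.

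The comparison with CreCtrl, which shares the Cre transgene with KO, called 2 of 81 members in edgeR's test, where DESeq2 called 15 and edgeR without the low-count filter 16. Sdhd, a membrane anchor of complex II, was at 84.8 and 56.7 CPM in CreCtrl and 114 and 137 CPM in KO (log2 fold change 0.78, SE 0.21, adjusted p = 0.0483). Ndufa4l2 was at 1.56 and 1 CPM in CreCtrl (36 and 16 counts) and 0.167 and 0.0356 CPM in KO (4 and 1 counts), and fell by 3.70 (SE 0.85, adjusted p = 0.0333). Of all 15963 genes tested, 3.60% were called higher and 12.2% lower. At an unadjusted p under 0.05 there were 23 members. The count of called members was 45 without CreCtrl 1, and 0 without CreCtrl 2 or without KO 2 of this set. The call for Ndufa4l2 was also lost without CreCtrl 1 (adjusted p = 0.0882).

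The direction was again mostly upward: 73 of 81 members were higher in KO, with a median log2 fold change of 0.34 against -0.02 over all genes. Both KO libraries were above both CreCtrl libraries for 61 members, which held for 37.9% of all genes. Among the top 10% of genes by abundance, the median of the 38 members (0.37) was close to that of the other genes (0.33), and 0 members were called higher, against 10.8% of the others. The sums were 11600 and 8580 CPM in CreCtrl and 13500 and 13800 CPM in KO. As a percent of each library's counts, without TMM scaling, they were 1.2 and 0.969% in CreCtrl and 1.24 and 1.2% in KO. Complex II had the highest median (0.55) and complex IV the lowest (0.23). The summed level of complex V went from 2960 ± 738 to 4400 ± 316 CPM (SD, n = 2 each), that of complex I from 3560 ± 690 to 4520 ± 57.3 CPM. The catalytic ATP synthase gene Atp5b, at 715 and 481 CPM in CreCtrl and 929 and 1140 CPM in KO, had a log2 fold change of 0.74 and missed the threshold (adjusted p = 0.0714). It passed by DESeq2 (adjusted p = 0.00472), without the low-count filter (0.0117) and without CreCtrl 1 (0.00921). Atp5a1 (0.77, adjusted p = 0.0739) and Ndufa9 (0.52, adjusted p = 0.0588) likewise missed it in edgeR's test and passed by DESeq2 (adjusted p = 0.00611 and 0.0306), without the filter (0.00665 and 0.0251) and without CreCtrl 1 (0.00833 and 0.0259). Fibroblast markers summed to 1380 to 2740 CPM in CreCtrl and 259 to 347 CPM in KO (9 of 10 called lower). The tenth, Fbln1, was higher (log2 fold change 0.38, not called). RPE markers summed to 49700 to 58800 CPM in CreCtrl and 72400 to 79600 CPM in KO. Of these 10 markers 8 were higher and 2 lower in KO. Lrat was called higher, and Pmel was called lower (log2 fold change -1.17, adjusted p = 0.00913). Best1 was the other lower marker (-1.11, not called). Rod photoreceptor markers summed to 1240 to 4850 CPM in CreCtrl and 582 to 654 CPM in KO. Of these 10 markers 9 were called lower, and Rom1 was higher (0.35, not called). Endothelial markers summed to 285 to 501 CPM in CreCtrl and 54 to 59.7 CPM in KO (8 of 10 called lower, median -2.54). Pericyte and smooth muscle markers summed to 532 to 758 CPM in CreCtrl and 333 to 398 CPM in KO (median -2.13). Of the 6 tested 3 were called lower, while Acta2 (0.79) and Cspg4 (0.14) were higher, not called. Of the 11 myeloid markers 9 were called lower (median -2.79). Csf1r was higher (0.28) and Aif1 lower (-2.06), not called. Csf1r was at 624 and 550 CPM in CreCtrl and 748 and 729 CPM in KO. The myeloid markers summed to 779 to 875 CPM in CreCtrl and 778 to 783 CPM in KO. The part of all these markers in these values was not tested.

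Fitting all 14 libraries at once with the set as a covariate asked which genes differed between the 7 KO and 7 control libraries across sets. In this edgeR fit 71 of 81 members passed (median log2 fold change 0.75), 70 higher and 1 lower in KO. Among the 14925 genes in the fit, 21.0% passed higher and 19.6% lower. All 4 complex II and all 8 complex III genes passed, as did 35 of 37 in complex I, 9 of 15 in complex IV and 15 of 17 in complex V. The 1 gene that fell was Ndufa4l2. Of the 46 assembly factors 22 passed, and of the 14 electron carriers and other respiratory genes 10.

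Whether the KO difference itself differed between sets was tested by interaction terms over 17662 genes. It was larger in the WT set than in the Ctrl set for 39 of 81 members (16 in complex I, 0 in II, 6 in III, 7 in IV and 10 in V), against 4.34% of all genes. The median difference between the log2 fold changes was 1.09, where all genes had 0.14. The 39 became 15 under RLE scaling and 12 with library size alone. It was larger in the WT set than in the CreCtrl set for 17 members, against 1.12% of all genes (median difference 1.07), which became 11 and 7 under these scalings and 45 without the low-count filter. Between the Ctrl and CreCtrl sets no member passed in edgeR's test, and 0% of all genes did, with 1 member at an unadjusted p under 0.05 and a median difference of 0.01. Across the members, Spearman's rho between the log2 fold changes of the sets was 0.32 for WT and Ctrl, 0.09 for WT and CreCtrl and -0.29 for Ctrl and CreCtrl, over 80 or 81 genes that are not independent.

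Some isoform genes of complex IV took a smaller share of their family in KO than in WT. The share of Cox6b2, a form of subunit VIb best known from testis, in the summed level per kilobase of Cox6b1 and Cox6b2 was 33.1% in WT (32.6 to 33.9%) and 20.9% in KO (19.8 to 21.8%). Cox6b2 itself was at 38.8, 48.3 and 45.4 CPM in WT and 62.9, 55.1 and 60.4 CPM in KO (log2 fold change 0.28, SE 0.15, adjusted p = 0.191), while Cox6b1 rose by 1.18 (SE 0.12, adjusted p = 0.000195). The mean share was 24.3% in both groups of the Ctrl set, and 25.8% in CreCtrl against 20.6% in KO.

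Cox7a2l was close to level in the WT set, at 63.8, 64.3 and 59.4 CPM in WT and 70, 74.7 and 58.1 CPM in KO (log2 fold change -0.04, SE 0.13, adjusted p = 0.85). Its sign turned in other fits, with values up to 0.14. Its paralogue Cox7a2, the common form of subunit VIIa, was at 39.9, 50.9 and 56.3 CPM in WT and 164, 154 and 161 CPM in KO (1.55, SE 0.15, adjusted p = 0.000154). The share of Cox7a2l in the family's level per kilobase was 42.5% in WT (37.8 to 47.9%) and 19.4% in KO (17.5 to 21.8%). The mean share was 29.4% in Ctrl and 18.4% in KO of that set, with overlapping libraries, and 20.8% in CreCtrl against 22.8% in KO. Against CreCtrl the level of Cox7a2l was higher in KO, at 55.8 and 62.3 CPM over 45 and 37.2 CPM, but missed the threshold (0.47, SE 0.16, adjusted p = 0.0774).

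Cox8b, the form of subunit VIII known from heart, skeletal muscle and brown fat, was among the most abundant members in RPE. It was at 76.8, 123 and 128 CPM in WT and 334, 412 and 253 CPM in KO (log2 fold change 1.45, SE 0.24, adjusted p = 0.00183), and its partner Cox8a rose by 1.58. Cox8b made up 43.0% of the pair's level per kilobase in WT and 41.0% in KO, 29.5% in Ctrl and 29.3% in KO of that set, and 46.7% in CreCtrl and 32.0% in KO of that set. The defining markers of muscle and brown fat were low: the 8 skeletal muscle markers summed to at most 22 CPM and the 5 brown fat markers to at most 3.23 CPM, and Ucp1 reached at most 0.251 CPM in any library. Cox7a1, another muscle form, had 1.55, 2.55 and 2.09 CPM in WT and 12.2, 6.35 and 4.13 CPM in KO (1.72, SE 0.60, adjusted p = 0.0543). It passed without KO 3 (adjusted p = 0.0293). Cox4i2, the lung form of subunit IV induced by low oxygen, made up only 1.04 to 2.1% of its pair in the group means.

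**Figure D4:**
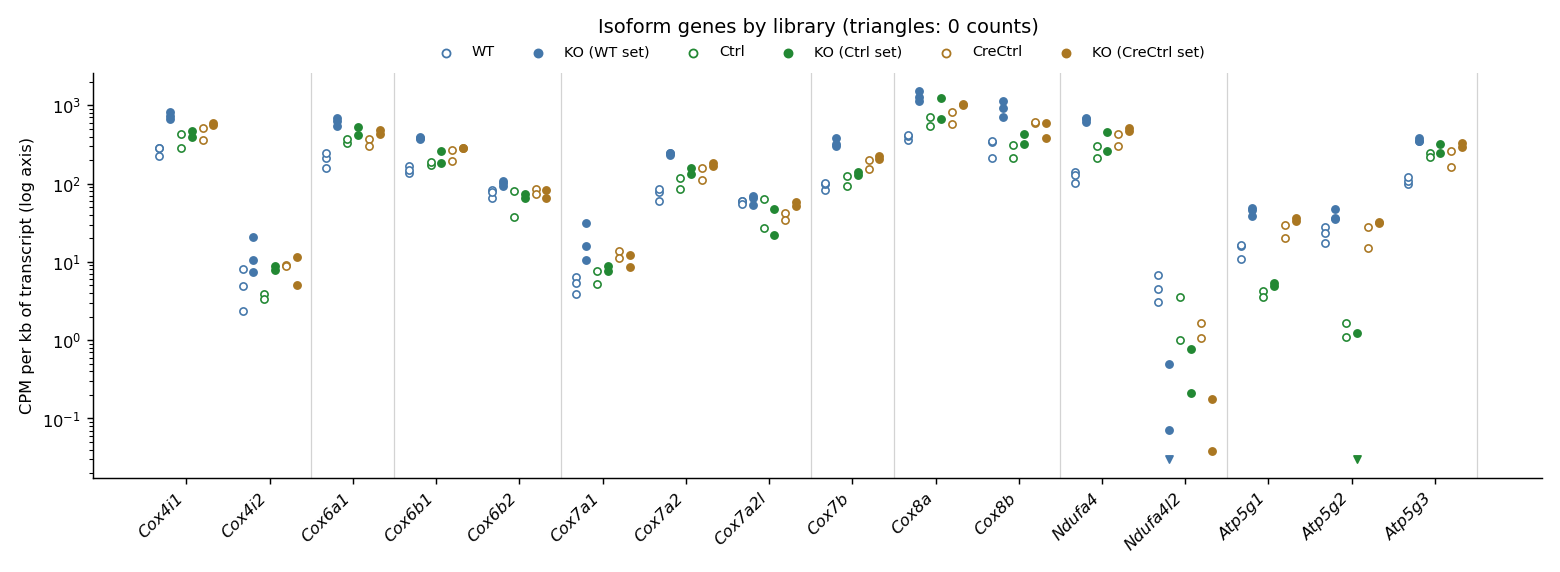
Level per kilobase of principal transcript (CPM per kb, log axis) of the isoform genes in each of the 14 libraries, with open points for controls, filled points for KO and triangles at the bottom for libraries with 0 counts. In the WT set KO points lie above WT points for Cox6b1, Cox7a2 and Cox8b but overlap them for Cox7a2l, Ndufa4l2 is lower in KO, and Atp5g2 is low in all 4 libraries of the Ctrl set.

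The genes for subunit c of ATP synthase, Atp5g1, Atp5g2 and Atp5g3, encode the same mature protein. Atp5g3 held 74.8% of their level per kilobase in WT and 81.2% in KO, 82.1% in CreCtrl and 82.3% in KO of that set, but 97.8% in Ctrl and 98.0% in KO of that set. The principal transcript of Atp5g1 is annotated with 4715 bases, which lowers its level per kilobase. Atp5g1 and Atp5g3 rose by 1.45 and 1.57 in KO against WT. The high share of Atp5g3 in the Ctrl set went with low values of Atp5g1 and Atp5g2 in all 4 of its libraries, KO and Ctrl alike. Atp5g2 was at 0.794 and 1.21 CPM in Ctrl and 0.916 and 0 CPM in KO there (12, 32, 14 and 0 counts), where the 3 WT libraries had 12.7, 20.3 and 16.9 CPM.

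For 5 of 81 members (6.17%) all 4 libraries of the Ctrl set were below all 10 other libraries: Atp5g2, Atp5l, Cox7c, Uqcrb and Atp5g1. This held for 1.93% of all genes. Cox7c was at 7.47 and 2.67 CPM in Ctrl and 4.84 and 6.41 CPM in KO there, and at no less than 36.5 CPM elsewhere. These members share sequence with other genes: of the 50-base windows of their principal transcript, 87.4% in Atp5g2, 68.5% in Atp5l, 53% in Cox7c, 43.2% in Uqcrb and 10.6% in Atp5g1 occurred in another gene's transcript. None of the 46 members without a shared window showed the pattern, whereas 4 of the 10 with over 25% shared windows did. Ribosomal protein genes, known for many processed pseudogenes, showed it in 68 of 81 cases (84%). How reads that match several places were counted in each set is not given in the sources used here, so values of these 5 genes are uncertain between sets. Atp5l and Atp5g1 are among the 39 members whose KO difference was larger in the WT set than in the Ctrl set, and 37 are left without them. Some of the 37 also shared over 25% of windows: Atp5h (47.9%), Ndufs5 (31.1%), Ndufa12 (26.2%) and Cox5b (25.9%). Their log2 ratios of median CPM, Ctrl set over the other libraries, were -1.37, -2.09, -0.55 and -1.36. Values of these genes are uncertain between sets as well. With members of over 10% shared windows left aside, 57 of 63 were called higher and 1 lower in KO against WT (median 1.21).

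**Figure D5:**
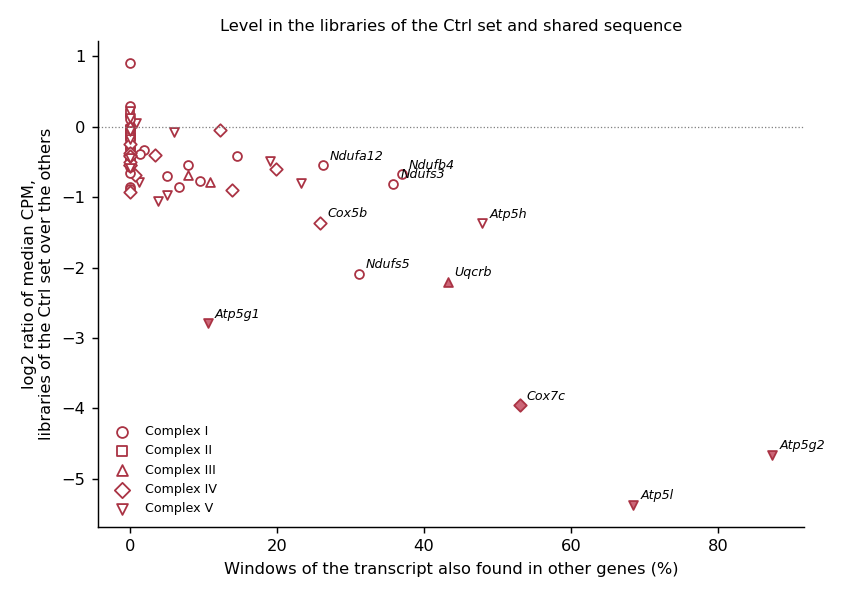
Log2 ratio of the median CPM in the 4 libraries of the Ctrl set to that in the other 10 (vertical axis), against the percent of 50-base windows of the principal transcript also found in other genes, 1 point per tested member, filled where all 4 libraries were below all others. Members with over 25% shared windows, named beside their points with Atp5g1, have a median ratio of -1.73, and those with none a median of -0.23.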

How the data were processed

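RPE RNA of 14 mice was sequenced by the study, and the authors deposited raw counts per gene, with no normalization. The submitters' processing notes name STAR 2.5.2, Cufflinks 2.1.1, HTSeq 0.11.2 and bcl2fastq 2.19. The roles of these tools in counting, the strand setting and the treatment of reads that match several places are not given in the sources used here. Gene symbols, types and lengths were taken from GENCODE M21, which held 42329 of the 42687 gene IDs. Each set was fitted separately with edgeR 4.0.16 in R 4.3.3: low-count genes were removed by edgeR's filter on expression, libraries were scaled by TMM, and KO was tested against control by the quasi-likelihood test with Benjamini-Hochberg adjustment over all genes tested. An adjusted p under 0.05 was a call. The SE printed with a log2 fold change was its absolute value divided by the square root of the test's F statistic. A fit of all 14 libraries with the set as covariate and a fit with interaction terms for the sets followed. The scripts were tested on simulated counts.

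The replicates were separate mice. No 2 libraries held the same values. Alternatives were RLE scaling, library size alone, no filter on low counts, DESeq2 1.42.0, a correction for transcript length, 1 fit of all groups, the replicate number as a block, and leaving out each library. Members and gene lists (assembly factors, regulators, electron carriers and other respiratory genes, ribosomal proteins and cell markers) were chosen with earlier results of these data known. By rule, the text names genes of the complex I core, the Sdh genes, the catalytic or defining subunits, the isoform families, the lowest and highest change of each complex in KO against WT, members not called there, the 2 lowest adjusted p per pair of sets, members called in the smaller sets and members under 10 counts. Ndufs5, Ndufs4 and the genes low in the Ctrl set were chosen after their values were seen. Not every gene under the rule is reported here. Mitochondrially encoded genes were not analysed here.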

Additional observations from a re-analysis of the deposited data

Results flagged for a closer look

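The KO difference was larger in the WT set than in the Ctrl set for 39 members by the interaction test of edgeR, a count that fell to 15 under RLE scaling and 12 with library size alone. Examples are Ndufc2, with a difference between the log2 fold changes of 2.00 (SE 0.28, adjusted p = 0.00744), and Cox7b, with 1.52 (SE 0.25, adjusted p = 0.0112). It was larger in the WT set than in the CreCtrl set for 17 members (11 and 7 under these scalings, and 45 without the low-count filter), among them Ndufc2 with 1.86 (SE 0.28, adjusted p = 0.0166) and Ndufv3, a small complex I subunit, with 1.67 (SE 0.26, adjusted p = 0.0187). All 39 and all 17 differences had the same sign. The WT libraries also stood apart in their fibroblast and RPE marker levels. KO libraries of the same genotype differed between sets too. Their members summed to 15800 to 18200 CPM in the WT set, 10600 and 10800 in the Ctrl set and 13500 and 13800 in the CreCtrl set. These sums include the members with shared windows, whose values are uncertain between sets. Members with over 25% shared windows had a median log2 ratio of -1.73, Ctrl set over the other libraries, and those with none had -0.23. RPE markers in these KO groups summed to 73400 to 82600, 72000 to 73100 and 72400 to 79600 CPM. The part of these values in the differences was not tested.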

How the results depend on the processing

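With few libraries in the Ctrl and CreCtrl sets, calls there rest on 2 against 2 mice. The number of members called in KO against WT stayed at 72 to 75 when 1 library was left out, and the median log2 fold change at 1.19 to 1.43. The median was 1.06 with library size alone, 1.07 with a length correction and 1.44 in 1 fit of all groups. Scaling by library size alone moved the median of all genes to -0.323 against WT, -0.105 against Ctrl and -0.243 against CreCtrl. Against Ctrl, the median was 0.14 with the length correction and 0.18 to 0.58 when 1 library was left out, with 0 calls each time. Against CreCtrl, 1 member was called with library size alone, 16 without the low-count filter, 15 by DESeq2, 0 in 1 fit of all groups and 0 to 45 when 1 library was left out. The median there was 0.13 with library size alone and 0.12 to 0.57 when 1 library was left out. The fit with set as covariate gave 65 to 75 calls without 1 library. The WT set's difference from the Ctrl set passed for 15 members under RLE scaling and 12 with library size alone, and that from the CreCtrl set for 11, 7 and, without the low-count filter, 45. In KO against WT, Ndufb2 turned to -0.06 with library size alone, and Cox7a2l to 0.04 without the low-count filter, 0.10 in 1 fit of all groups and 0.14 without KO 3. With the replicate number as a block, 73 members were called against WT, 0 against Ctrl and 2 against CreCtrl. Same-numbered libraries of the WT set correlated at -0.01, 0.04 and 0.13 in their deviations, so the numbers were not taken to pair them. Of 881 values for single genes 877 kept their direction. Ndufv1 and Ndufs8 lost their calls with library size alone or the length correction, Ndufv1 also under the block, and Cox7a1 was called by DESeq2 (adjusted p = 0.026). The causes were not tested.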
